A study of Mus musculus with 4 samples.

Results

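The peaks described here are those of human chromosome 19 that lie outside its zinc finger gene clusters. They were taken from 1 list of open chromatin peaks of HEK293 cells, a human embryonic kidney line, and were chosen by position alone. A peak was included if its centre, the mean of its start and end, lay on chromosome 19 outside 4 intervals in GRCh38, from 19.7 to 28.1 Mb, from 36.2 to 38 Mb, from 43.8 to 44.6 Mb and from 51.9 to 58.617 Mb. This left 2353 peaks of the 48751 in the list (4.83%), or 73.7% of the 3194 peaks of chromosome 19. They spread over 40.9 Mb in 4 stretches, 1.35% of the length of chromosomes 1 to 22 and X. The 841 peaks with a centre inside the 4 intervals are called cluster peaks below.

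Chromosome 19 is the most gene-dense human chromosome, and its genes lie in GC-rich sequence with many CpG islands. Its zinc finger clusters hold tandem copies of KRAB zinc finger genes, many of whose products repress transposable elements, and parts of these clusters are packed in heterochromatin. In ATAC-seq a transposase cuts and tags DNA where nucleosomes leave it free, so that active promoters and enhancers appear as peaks of stacked fragments. Zinc finger genes also occur elsewhere on chromosome 19, and an annotation of GRCh38 was not used here. The label of these peaks was therefore checked as positions only, and no gene is assigned to any of them.

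The experiment used TRAFTACs, chimeric oligonucleotides that carry a DNA element bound by a transcription factor and bring that factor to a HaloTag fusion for degradation. In 2 libraries the TRAFTAC carried the NFkB element, and in 2 it carried a scrambled one. All 4 libraries shared the other agents, namely a plasmid for dCas9 fused to HaloTag7, the TRAFTAC at 25 nM for 6 h, and then TNF-alpha at 5 ng/mL, which activates NFkB, with HP14, a PROTAC that binds the HaloTag, at 25 µM for 19 h. The methods also state that the cells were treated with DNase shortly before harvest. Each library was made from 50000 cells with 8 PCR cycles. The labels name the mouse as the organism, while the cell line is human and the peak positions and scaffold names are those of GRCh38. The list was called on all 4 libraries merged, so every value below is 1 value over both TRAFTACs. It carries no replicate error and no comparison of the TRAFTACs, and it does not give the depth of a library, for which a minimum of 20000000 paired-end reads is stated. The intervals printed below are 95% intervals over peaks. They cover counting error only, they are not adjusted for the number of comparisons, and neighbouring peaks are not independent.

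Chromosome 19 outside the clusters was denser in peaks than any other chromosome taken whole. There were 57.5 peaks per Mb (exact Poisson interval 55.2 to 59.9), against 15.2 per Mb over the 22 other chromosomes, a ratio of 3.79. Its density ranked 1 of 23 when set beside each other chromosome. The nearest was chromosome 17 with 38.04 per Mb, followed by chromosome 22 with 29.2 per Mb and chromosome 16 with 21.04 per Mb, all of them also rich in genes. The chromosome 19 density was 1.51 times that of chromosome 17, 1.97 times that of chromosome 22 and 2.73 times that of chromosome 16. At the other end, chromosome 13, a gene-poor chromosome, held 7.26 per Mb. The lengths of the other chromosomes ran from the start of the sequence to their last peak. They thus included centromeres and any stretch before the first peak, which lowers a density. The mean gap between neighbouring peaks leaves out the sequence before the first peak. It was 25533.5 bp on chromosome 17, 26383.8 bp on chromosome 22 and 46824.8 bp on chromosome 16, against 16596.7 bp outside the clusters. Chromosomes 17 and 22 were thus close by this measure. Chromosome 19 taken whole, with its own centromere and clusters, still had 54.5 per Mb. Counted only over 1 Mb bins that hold a peak, a choice made after seeing the data, the ratio to the other chromosomes was 3.45. Peaks covered 4.01% of the sequence outside the clusters, against 1.098% over the other chromosomes and 2.75% on chromosome 17.

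**Figure D1:**
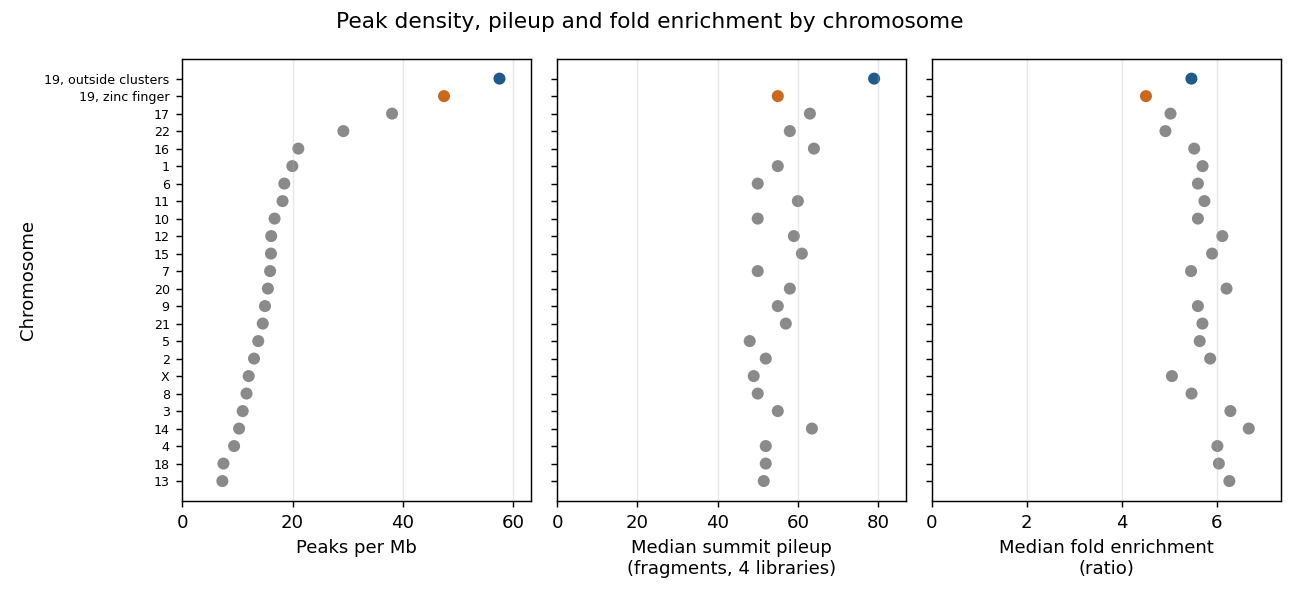
Each point is 1 chromosome, ordered by peaks per Mb, with chromosome 19 outside the zinc finger clusters in blue and its clusters in orange; the panels give peaks per Mb, the median summit pileup in fragments over the 4 merged libraries and the median fold enrichment. Chromosome 19 outside the clusters lies highest for density (57.5 per Mb) and pileup (79 fragments), but among the lower values for fold enrichment (5.47).

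The excess was found at every level of peak strength and was widest for the strongest peaks. Strength is given as the −log10 of the q-value that the peak caller assigned. Peaks whose −log10 q-value reached 100 are called strong here, and those below 5 weak. Of the chromosome 19 peaks, 608 were strong, or 25.8% (Wilson interval 24.1% to 27.6%), against 21.5% of all peaks in the list and 21.1% on the other chromosomes. The difference from the other chromosomes was 4.76 percentage points (2.99 to 6.61). Per Mb there were 14.9 such peaks, 4.64 times the 3.20 per Mb elsewhere. The weak end held 280 of the chromosome 19 peaks, or 11.9%, against 13.5% of all peaks in the list. Per Mb the weak peaks numbered 6.85 against 2.04 elsewhere, a ratio of 3.36. Against chromosome 17 the ratio was 1.74 for the strong class and 1.09 for the weak class, with 6.27 weak peaks per Mb on chromosome 17.

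Along the chromosome the peaks were unevenly placed. The 4 included stretches had 63.1 peaks per Mb on the short arm (1244 peaks from 0 to 19.7 Mb), 26.0 per Mb next to the centromere on the long arm (211 peaks from 28.1 to 36.2 Mb), 56.6 per Mb from 38 to 43.8 Mb (328 peaks) and 78.1 per Mb from 44.6 to 51.9 Mb (570 peaks). The densest stretch thus held 3 times as many peaks per Mb as the sparsest. The short arm had 1.21 times the density of the long arm (63.1 against 52.3 per Mb), and this difference rested on the stretch from 28.1 to 36.2 Mb, since without it the long arm had 68.5 per Mb. The densities also differed within stretches, as the 1 Mb bins show.

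**Figure D2:**
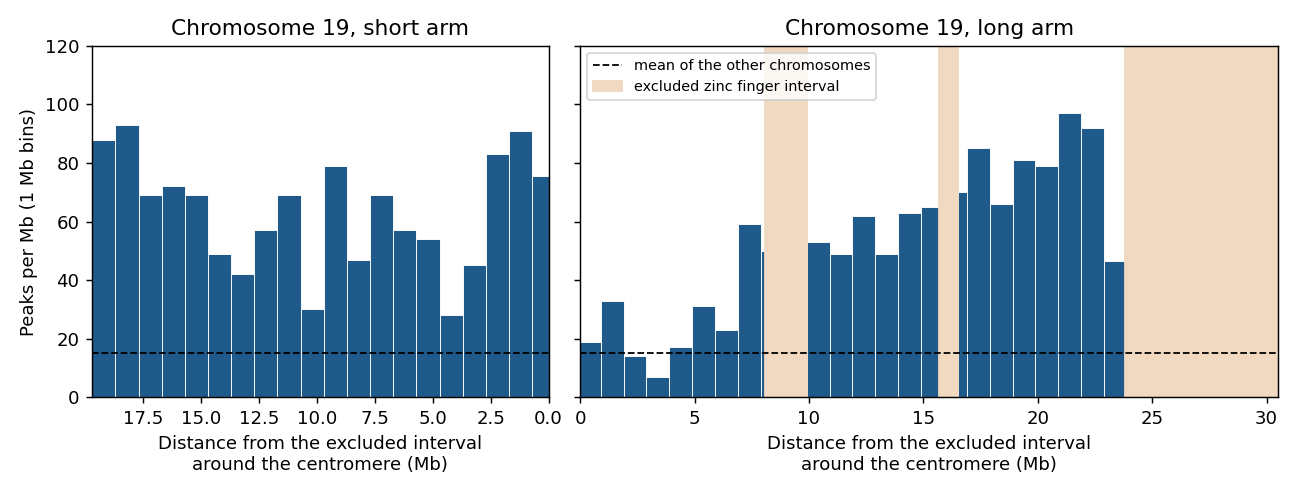
Bars give peaks per Mb in 1 Mb bins (narrower where a bin meets an excluded interval) against the distance in Mb from the excluded interval around the centromere, for the short arm on the left and the long arm on the right; shaded bands are excluded intervals and the dashed line is the 15.2 per Mb of the other chromosomes. Both ends of the short arm and the last long-arm stretch stand high, and the part of the long arm next to the centromere holds the sparsest bins, with 7 peaks in the lowest.

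In the 37 bins of 1 Mb that lay wholly outside the clusters, the number of peaks ran from 7 to 97 with a median of 59 (quartiles 45 and 79). The variance was 9.92 times the mean (interval 6.56 to 16.7, which takes the bins as independent), where peaks placed at random would give a ratio near 1. Over the bins of the 22 other chromosomes that hold a peak, pooled, the ratio was 14.8. That ratio depends on the mean count per bin and on pooling chromosomes of different density, so it gives no comparison of evenness. Occupied bins on the other chromosomes had a median of 12 peaks (quartiles 6 and 22.25). All but 1 of the chromosome 19 bins were thus at or above the median bin elsewhere. At least 50 peaks were found in 23 of the 37 bins (62.2%), against 135 of 2962 bins elsewhere (4.56%). At least 80 peaks were found in 8 of these bins and in 15 elsewhere. The single densest bin of the list, with 125 peaks, lay on another chromosome. Strong peaks numbered from 0 to 30 per bin, with a median of 14.

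The 5 densest bins came from both arms. They started at 49 Mb (97 peaks), 1 Mb (93 peaks), 50 Mb (92 peaks), 18 Mb (91 peaks) and 0 Mb (88 peaks). The bins at 49 and 50 Mb each held 30 strong peaks, the most of any bin outside the clusters. The bin at 0 Mb, which runs to the tip of the short arm, held 14 such peaks and had the lowest median fold enrichment of all ranked bins, 3.97. The share of strong peaks thus differed among the densest bins, from 15.9% in the bin at 0 Mb to 32.6% in that at 50 Mb. Between the bin at 18 Mb and the excluded interval around the centromere lay 0.7 Mb with 53 peaks, or 75.7 per Mb.

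The 5 sparsest bins all lay on the long arm next to the centromere. The bin at 31 Mb had 7 peaks, that at 30 Mb had 14, that at 32 Mb had 17, that at 28 Mb had 17 over its included 0.9 Mb, and that at 34 Mb had 23. The bins at 28, 30 and 31 Mb had 0 strong peaks. The bin at 34 Mb had 9 of these among its 23 peaks and the highest median fold enrichment of all ranked bins, 9.97. Sparse bins on the short arm were those at 15 Mb with 28 peaks and at 9 Mb with 30 peaks. The bin at 9 Mb had a median fold enrichment of 8.95, and 46.7% of its peaks were strong.

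Denser bins had a higher background around their peaks and a slightly lower fold enrichment. The fold enrichment that MACS2 reports is the ratio of the fragments stacked at a summit, its pileup, to the fragments expected there from a local background. No control library is among the 4, so the background came from the same merged fragments and is not independent of pileup or density. On the other chromosomes, peaks with no other peak within 10 kb had a median background of 6.32 fragments at pileups of 16 to under 30. From 240 upwards it was 25.5. Pileup and background were recovered from the listed fold enrichment and p-value (all 2353 peaks gave a whole number of fragments within the tolerance). Over 41 bins of at least 500 kb, peaks per Mb went with the median background (Spearman 0.77) and, more weakly and inversely, with the median fold enrichment (Spearman −0.30). On the other chromosomes, peaks per bin and the median fold enrichment had a Spearman of −0.25 over 2115 bins of at least 5 peaks. The inverse relation was thus not particular to chromosome 19. The bins share the 4 merged libraries, and neighbours share sequence environment, so that these values are descriptions. In bins of under 40 peaks per Mb the median fold enrichment was 6.29, and in bins of at least 80 per Mb it was 5.15 (interval 4.81 to 5.52). The median background in the same classes was 8.69 and 18.05 fragments. The share of strong peaks showed little relation with density (Spearman 0.16).

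**Figure D3:**
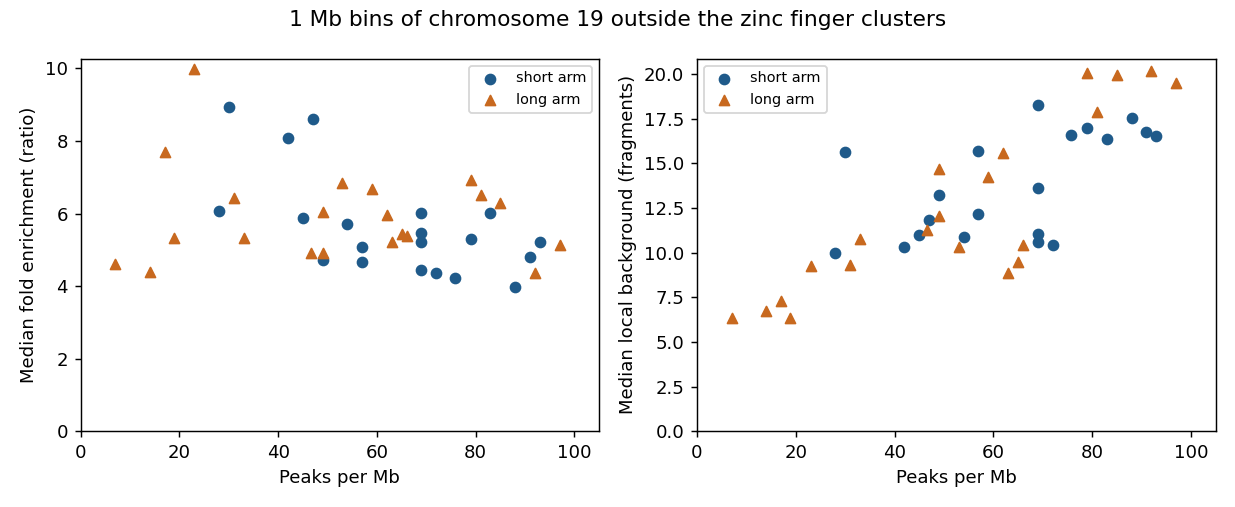
Each point is a 1 Mb bin of chromosome 19 outside the clusters with at least 500 kb included, circles on the short arm and triangles on the long arm; the left panel plots the median fold enrichment and the right panel the median local background in fragments against peaks per Mb. The background climbs from about the genome-wide level in the sparsest bins to 20.2 fragments, while the fold enrichment spreads widely in sparse bins (4.39 to 9.97 in bins of under 40 per Mb).

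The peaks next to the centromere on the long arm were fewer but had a higher median fold enrichment. Over the 211 peaks from 28.1 to 36.2 Mb the median fold enrichment was 6.42, against 5.38 over the other chromosome 19 peaks (difference 1.04, interval 0.382 to 1.70). Fold enrichments of at least 10 were seen in 26.5% of them against 18.3%. Their median pileup was lower, with 65 against 81 fragments (difference −16, interval −30.6 to −1.42), and so was their median background, with 9.24 against 14.6 fragments. Their median width of 624 bp differed by 13 bp from that of the others (interval −56.7 to 82.7). The stretch from 44.6 to 51.9 Mb, the densest one, went the other way in pileup and background only, with medians of 100.5 and 16.9 fragments. Its median fold enrichment of 5.56 differed by 0.113 from that of the rest (interval −0.403 to 0.628).

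Summits on chromosome 19 outside the clusters carried more fragments than on the other chromosomes, and their local background was higher. The median summit pileup was 79 fragments (interval 74 to 84), against 55 on the other chromosomes, a difference of 24 (18.6 to 29.4), and it ranked 1 of 23. The median background was 13.9 fragments against 8.28, a difference of 5.66 (5.02 to 6.29), and also ranked 1 of 23. A background at the genome-wide level of 6.32 fragments, the lowest the caller uses, was found for 10.4% of the chromosome 19 peaks and 35.3% elsewhere. A background that reached 2 times that level was found for 55.3% and 32.6%, respectively. At the extreme, 4.42% of the chromosome 19 peaks had a background that reached 10 times this level, against 1.06% elsewhere. A pileup of 79 fragments has a counting SD of 8.89 fragments, or 11.3%, and would be 19.75 fragments per library if the 4 libraries were equally deep.

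The fold enrichment did not follow the pileup. Its median was 5.47 (interval 5.32 to 5.73; quartiles 3.54 and 8.75) against 5.67 on the other chromosomes, a difference of −0.207 whose interval of −0.419 to 0.00521 includes 0, and it ranked 19 of 23. At equal strength the fold enrichment was lower on chromosome 19. Among strong peaks the medians were 11.1 and 12.5 (difference −1.33, interval −1.65 to −1.01), with a background of 30.4 against 22.4 fragments. Among those between 20 and 100 the medians were 6.42 and 7.38, between 5 and 20 they were 3.73 and 4.10, and below 5 they were 2.52 and 2.73, each difference having an interval below 0. The fold enrichment and the q-value both contain the background, so that peaks of one strength over a higher background must have more fragments and a lower fold. Against chromosome 17, the next in peaks per Mb, the strong peaks differed by −0.347 (interval −0.788 to 0.0938). The median over all peaks was 0.440 higher on chromosome 19 (0.187 to 0.693).

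Over all pileups, the background was higher also where no other peak lay near. Of the chromosome 19 peaks, 620 (26.3%) had no other peak within 10 kb, against 49.4% of the peaks elsewhere. These isolated peaks had a median background of 10.3 fragments against 6.56 elsewhere (difference 3.71, interval 2.83 to 4.59). Within the isolated peaks with a pileup of at least 60 and under 120 fragments the medians were 9.71 and 7.73 (difference 1.98, interval 1.27 to 2.69), and that of chromosome 17 was 9.29 (8.63 to 10.4). In the other pileup classes the medians on chromosome 19 and elsewhere were 6.32 and 6.32 from 16 to under 30 fragments, 6.46 and 6.32 from 30 to under 60, 14.7 and 13.8 from 120 to under 240 (with overlapping intervals), and 31.0 and 25.5 from 240 upwards. Medians of 6.32 lie at the genome-wide level, the lowest the caller uses. At the lowest pileups the medians therefore cannot show whether the background differed. The part of peaks farther away in the background was not tested.

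The distribution of the fold enrichment was skewed to low values without a gap. Values of at least 10 made up 19.0% of the chromosome 19 peaks against 21.9% elsewhere, and values below 3 made up 17.1% against 12.7%. The middle range from 5 to 10 held 36.5% against 35.3%, a difference of 1.17 percentage points with an interval that includes 0 (−0.804 to 3.18). The cluster peaks had another shape, with only 19.6% in this middle range, 16.8 percentage points less than outside the clusters (13.4 to 20.1), and more peaks at both ends.

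**Figure D4:**
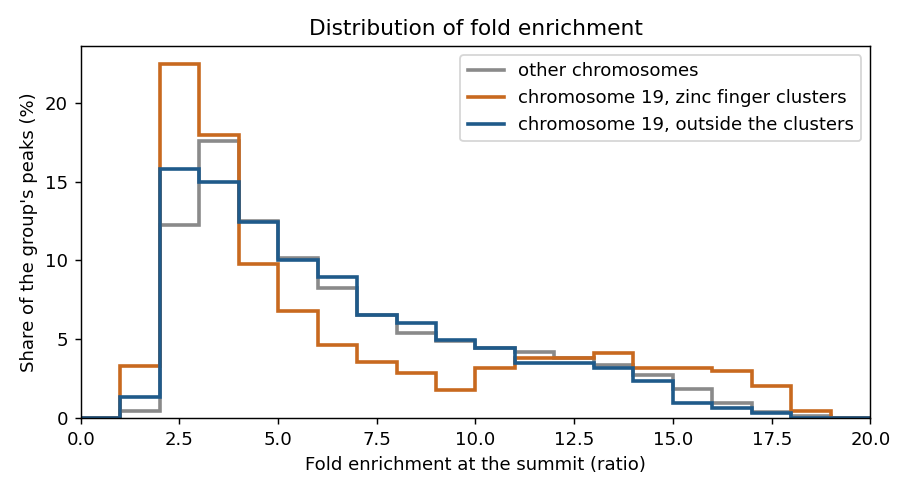
Lines give the percentage of peaks in each group against the fold enrichment at the summit, in steps of 1, for chromosome 19 outside the clusters (blue), its zinc finger clusters (orange) and the other chromosomes (grey). Blue and grey run close together except below 4, where 17.1% of the blue and 12.7% of the grey peaks lie under a fold of 3, while orange dips between 5 and 10.

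Widths on chromosome 19 were ordinary in the middle and short of broad peaks. The median width was 611 bp (interval 592 to 634; quartiles 390 and 907), against 588 bp elsewhere, a difference of 23 bp (1.93 to 44.1), and it ranked 3 of 23. Only 28 chromosome 19 peaks reached 2000 bp, or 1.19%, against 1.8% of all peaks in the list and 1.79% on the other chromosomes (difference −0.602 percentage points, interval −0.989 to −0.0647). Widths of at least 1000 bp were seen in 18.8%, a difference of −4.18 percentage points from elsewhere (−5.75 to −2.50), and widths under 300 bp in 11.5% against 14.5% elsewhere. Widths were thus drawn in from both ends. The strong peaks were narrower than strong peaks elsewhere, with a median of 993 against 1108 bp (difference −115, interval −148 to −82.3). Those between 20 and 100 were narrower too, with 643 against 698 bp (difference −55, −79.6 to −30.4), whereas the 2 weaker classes had intervals that include 0. Strong peaks were not clearly narrower than in every group compared. The difference in this class was −149 bp from chromosome 17 (−198 to −100.0) and −85 bp from chromosome 16 (−140 to −30.5). From chromosome 22 it was −50 bp (−112 to 11.5) and from the cluster peaks −16 bp (−67.4 to 35.4), with intervals that include 0. From the cluster interval before the long-arm end alone it was −55 bp (−102 to −7.67). Chromosome 22 also had few broad peaks, with 0.809% of at least 2000 bp, as had the clusters, with 1.19%. Width and fold enrichment were related over the chromosome 19 peaks (Spearman 0.64, 2353 peaks) to nearly the same degree as over those elsewhere (0.65). In peaks of at least 1000 bp the summit lay in the middle of 3 equal parts in 58.9% (54.3% to 63.4%). The share on the other chromosomes was 56.8% (55.8% to 57.8%), and these intervals overlap. In narrower peaks the shares were 54.4% (52.2% to 56.6%) and 51.2% (50.7% to 51.7%). Over all widths, the differences from chromosomes 16, 17 and 22 had intervals that include 0.

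Neighbouring peaks were closely spaced, with few long gaps. The 2349 gaps between neighbours within a stretch had a median of 9623 bp (interval 9152 to 10072; quartiles 5012 and 18789), against 19917 bp on the other chromosomes, 11269 bp on chromosome 17, 12719 bp on chromosome 22 and 14046 bp on chromosome 16. All these differences had intervals below 0. The coefficient of variation of the gaps was 1.61, against 2.25 on chromosome 17 and 2.38 on chromosome 22, where the gaps over the centromeres are included. The narrowest gap was 221 bp. Gaps under 5 kb made up 24.9% against 16.04% elsewhere, and gaps under 1 kb made up 5.19% against 4.26%. The long gaps differed too. Those of at least 100 kb numbered 33 and took up 13.8% of the sequence, whereas on the other chromosomes such gaps, with those over centromeres, took up 64.9%. The shares on chromosomes 17 and 22 were 32.4% and 25.8%. Between the stretches the median gap ran from 8154 bp (44.6 to 51.9 Mb) to 18308 bp (28.1 to 36.2 Mb), and in the latter the long gaps took up 38.5% of the sequence.

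**Figure D5:**
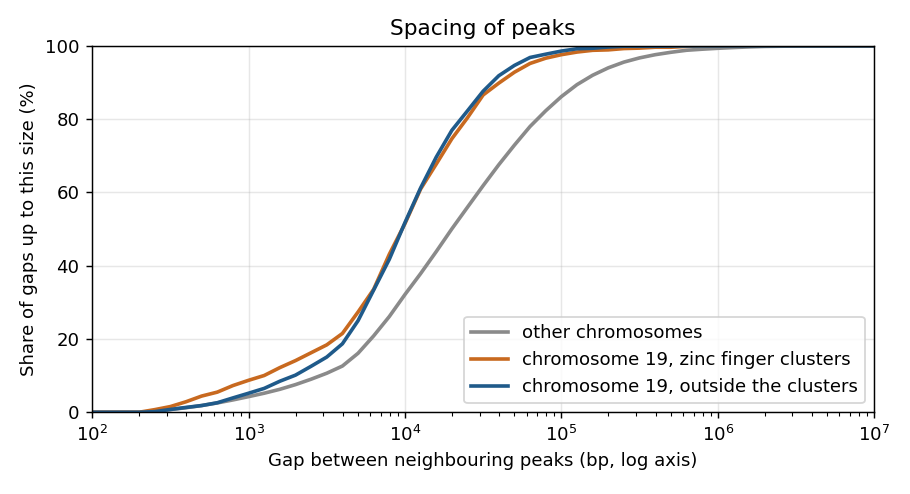
Lines give the percentage of gaps between neighbouring peaks up to a given size in bp (log axis) for chromosome 19 outside the clusters (blue), its clusters (orange) and the other chromosomes (grey). Blue and orange have medians of 9623 and 9573 bp, and grey is shifted to wider gaps with a median of 19917 bp.

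The 5 longest gaps ranged from 593 to 222 kb. Of these, 3 lay next to the centromere on the long arm, at chr19:31448620-32041718 (593 kb), chr19:30720178-31214093 (494 kb) and chr19:30392548-30628065 (236 kb), and together they take up much of the bins at 30 and 31 Mb. The others were chr19:39551786-39792933 on the long arm (241 kb) and chr19:8833085-9054943 on the short arm (222 kb).

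Joined wherever a gap was under 5 kb, the peaks formed 1767 runs. A single peak made up 1355 of them, and 57.6% of the peaks thus stood alone at this distance. Runs of at least 5 peaks numbered 14 and held 93 peaks. The longest, at chr19:50091351-50139663, held 16 peaks in 48.3 kb, and 11 of these were strong. This run lies in the third densest bin. The next, at chr19:47940916-47963776, held 10 peaks in 22.9 kb, of which 1 was that strong, and the run at chr19:12825630-12841162 held 8 peaks in 15.5 kb with 0 that strong and a highest fold enrichment of 4.57. Runs therefore differed widely in strength. They were chosen after their values were seen.

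Peaks of the 3 lower classes of strength lay at similar median distances from strong peaks. The median distance to the nearest strong peak was 20923 bp for weak peaks (interval 18334 to 23518), 23783 bp for those from 5 to 20 and 20295 bp for those from 20 to 100. Within 5 kb of a strong peak lay 1.79% of the weakest class and 9.99% of the class from 20 to 100. The gaps between consecutive strong peaks had a median of 36751.5 bp (32707 to 40711). These are gaps to the next strong peak along the sequence, not distances to the nearest on either side. They cannot be compared with the distances above. The fold enrichments of neighbouring peaks were almost unrelated (Spearman 0.081, 2349 pairs).

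The strongest single peaks came from both arms and were of medium width. The highest −log10 q-value was 870 at chr19:7829328-7830403, where 1178 fragments stood over a background of 84.7, a fold enrichment of 13.8 over a width of 1076 bp. It ranked 67 in the whole list. The next was chr19:49766161-49767153, with a −log10 q-value of 793 and 1096 fragments, in the densest bin. The peak at chr19:44890384-44891617 followed with 712, chr19:9818747-9819816 with 695 and chr19:8389906-8390988 with 687. All 5 were between 993 and 1234 bp wide. Of the 1000 peaks of highest q-value in the list, 121 were on chromosome 19 outside the clusters (12.1%, where these peaks make up 4.83% of the list).

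The peaks of highest fold enrichment were others, with fewer fragments over a lower background. The highest, 17.5, was at chr19:9768257-9769138, with 416 fragments over a background of 22.8. It lies in the sparse bin at 9 Mb that also held chr19:9818747-9819816. The next had values of 17.4 at chr19:246851-247499 and chr19:11155415-11156188, and of 17.3 at chr19:44770502-44771193 and chr19:41439523-41440159. Their pileups ran from 260 to 501 fragments, all below those of the 5 peaks of highest q-value. Of the 1000 peaks of highest fold enrichment in the list, 26 were among the chromosome 19 peaks (2.6%), fewer than their share of the list.

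The widest peaks had moderate fold enrichments. The widest, at chr19:7868695-7872360, measured 3666 bp and had 683 fragments at its summit over the highest background of the peaks named here, 142 fragments. Its fold enrichment was 4.80, and its summit lay 14.6% of the way from its start. It lies in the same bin as the peak of highest q-value. The next were chr19:42253266-42256069 (2804 bp, fold enrichment 5.21), chr19:31348636-31351356 (2721 bp, 4.597), chr19:2474653-2477175 (2523 bp, 5.22) and chr19:40715056-40717521 (2466 bp, 6.74). That at chr19:31348636-31351356 lies in the sparsest bin, as 1 of its 7 peaks. Of the 1000 widest peaks in the list, 32 were among the chromosome 19 peaks (3.2%).

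Against the zinc finger clusters of the same chromosome, the peaks outside were more often of middle strength. Their density of 57.5 per Mb was 1.21 times the 47.5 per Mb of the clusters (interval 1.12 to 1.31). Without the interval around the centromere the clusters had 59.8 per Mb. The ratio was then 0.962, with an interval that includes 1 (0.877 to 1.06). The interval before the end of the long arm alone had 71.0 per Mb, more than any included stretch but that from 44.6 to 51.9 Mb. A −log10 q-value from 20 to 100 was found for 34.0% of the peaks outside and 17.6% of the cluster peaks, a difference of 16.4 percentage points (13.1 to 19.5). Weak peaks, below 5, were fewer outside, with 11.9% against 21.6%, while the strong ones differed by −3.05 percentage points with an interval that includes 0 (−6.65 to 0.415). That interval rested on the part around the centromere, since without it 38.1% of the cluster peaks were strong, a difference of −12.2 percentage points (−16.7 to −7.89). The median fold enrichment was 5.47 outside and 4.51 inside (difference 0.957, 0.566 to 1.35). The median widths of 611 and 607 bp (difference 4, −47.2 to 55.2) and the median gaps of 9623 and 9573 bp (difference 50, −873 to 973) had differences whose intervals include 0. For the widths this too rested on the part around the centromere. Without it the cluster peaks had a median width of 677 bp (difference −66, −131 to −0.617).

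The clusters themselves were not alike, so that the contrast changed from one to the next. The intervals from 36.2 to 38 Mb and from 43.8 to 44.6 Mb held 54 and 26 peaks with median fold enrichments of 11.7 and 14.3, above every included stretch. The intervals around the centromere and before the long-arm end held 284 and 477 peaks with medians of 4.51 and 4.07, below every included stretch.

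At the borders set by the intervals, the nearest peaks inside and outside did not follow 1 pattern. At 19.7 Mb the last included peak, chr19:19668514-19669358, lay 31.1 kb before the border with a fold enrichment of 4.43, and the first cluster peak lay 33.1 kb beyond it with 15.9. At 43.8 Mb the last included peak was 1.28 kb from the border with 9.25, and the first cluster peak was 27.3 kb beyond it with 13.9. At 51.9 Mb, by contrast, the included peak chr19:51887552-51888485 had 15.4 and the first cluster peak 9.82. At 28.1 Mb both were far from the border, 114 kb on the included side (5.88) and 126 kb on the other (3.69). At 36.2, 38 and 44.6 Mb the included peaks had fold enrichments of 4.78, 3.30 and 9.45 and the cluster peaks 15.4, 3.01 and 5.19.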

How the data were processed

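Per the labels and the methods, reads of the 4 ATAC-seq libraries were trimmed with Trimmomatic and aligned with Bowtie2 to GRCh38.p10. Duplicates were marked with Picard, and the authors called peaks with MACS2. The deposited list is named as called on the merged samples. The methods describe such a call only for short, nucleosome-free fragments, at a q-value limit below the highest q-value of these chromosome 19 peaks, 0.0402. The fragments and settings behind this list are therefore not known. The methods also describe consensus peaks merged from single samples, which were not used here. The list deposited by the authors gives the position and summit of a peak, a score (10 times its −log10 q-value, truncated), the fold enrichment as a linear ratio, and the −log10 of the p-value and q-value. Columns of single samples numbered 0, and fragments of the list were not split by library.

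Members, intervals and lists were chosen with earlier results of these data known. Centres were compared with the intervals, and positions were converted to 1-based coordinates (Python 3.11.15, pandas 2.3.3, numpy 2.4.6, scipy 1.17.1; figures with matplotlib 3.10.9). Pileup and background were recovered from the fold enrichment (pseudocount 1) and the −log10 p-value under a Poisson distribution, with a tolerance of 0.001, and 48727 of 48751 peaks were fitted. The search and the intervals were tested on simulated data. Medians have order-statistic intervals, differences of medians Price and Bonett's, shares Wilson's and differences of shares Newcombe's. Difference intervals and isolated peaks were added after the data were seen. Single peaks, bins and gaps were named by rule, as the 5 highest or lowest of each measure. Alternatives were other q-value limits, borders, bin sizes and gap definitions. Genes, promoters and sequences were not analysed here, because no GRCh38 sequence or annotation was used.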

Additional observations from a re-analysis of the deposited data

How the results depend on the processing

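Of 25 recomputed values, 14 stayed within the interval of the reported value (within 1.5 times for counts), 10 moved beyond it and 1 reversed. The reversed one was the ratio of peaks per Mb to the zinc finger clusters, which fell from 1.21 to 0.962 without the interval around the centromere. The interval of the latter, 0.877 to 1.06, includes 1, so it shows no direction. Among peaks whose −log10 q-value reached 5, that ratio was 1.36, the density 50.7 per Mb, the median −log10 q-value 38.8, the median fold enrichment 6.15, the median gap 10945 bp, the median width 667 bp, the sequence inside peaks 3.76% and, chosen after seeing the data, the median background 15.1 fragments. Gaps from summit to summit had a median of 10251 bp. Over 1 Mb bins that hold a peak, chosen after seeing the data, the ratio to the other chromosomes was 3.45. The number of peaks was 2073 at that q-value limit and 2160 with the excluded intervals widened by 500 kb, and it stayed at 2353 with membership by the summit. The variance to mean ratio was 6.75 in 500 kb bins, 15.7 in 2 Mb bins and 11.6 in shifted bins. No paired analysis was possible because every value is 1 number for the merged libraries, and for the same reason none of them could be left out. Beyond the stated minimum of 20000000 paired-end reads, the depth per library was not given by the list, and no limit of detection for weak peaks was computed.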
